A study of Homo sapiens with 12 samples.

Results

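The immediate-early genes of the EGR, NR4A and IER families and the transcription factor gene SRF were followed in DLD1 cells, an established human colorectal adenocarcinoma line. The set was given as 10 gene symbols, EGR1, EGR2, EGR3, NR4A1, NR4A2, NR4A3, IER2, IER3, IER5 and SRF. All 10 were found among the 26485 symbols counted, and all 10 were among the 13619 genes with enough reads to be tested. Poly(A) RNA had been sequenced after 1 h in 4 groups of 3 libraries, 12 in all. The control group received DMSO, the vehicle. The other groups received 10 µM of TCDD, of kynurenine (Kyn) or of CH223191 (CH). TCDD, a dioxin, is the prototypical agonist of AHR, the aryl hydrocarbon receptor, which enters the nucleus on ligand binding and drives transcription. Kynurenine, made from tryptophan, is known as an AHR ligand of the body itself, and CH223191 as a synthetic AHR antagonist. The cells are a single cancer line in culture, and nothing in the labels tells whether replicates were separate cultures, so p-values measure the spread between these libraries only.

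Immediate-early genes are transcribed within minutes of a stimulus and need no new protein synthesis for it. At many of them SRF sits on a promoter element called the CArG box together with ternary complex factors that ERK phosphorylates, or with actin-regulated cofactors, and at others the cAMP-responsive factor CREB binds. The EGR proteins are zinc finger transcription factors, the NR4A proteins are orphan nuclear receptors whose activity follows their amount, and the IER genes share a name for their early induction, although IER3 is unrelated in sequence to IER2 and IER5. In gut epithelium these genes are known as early read-outs of growth factor and stress signals.

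Promoter windows of 7 of the 10 members were matched by symbol in the RefSeq table of build GRCh38.p14, and EGR3, NR4A2 and IER3 had no entry. Each window runs from 250 bases before to 50 bases after a transcription start. The 7 members had 11 windows, since EGR2 had 3 listed starts and NR4A1 and SRF 2 each. The windows were searched on both strands for the CArG box, which matched in 3 of the 7 members, EGR1, EGR2 and SRF. By window it matched in 3 of 11, against 1.30% of 34796 windows of the same length. The following stretches, read 5′ to 3′ on the gene's strand and ending at the base before the start, show these matches in capitals. They are shown because EGR1 and SRF changed with CH223191 while EGR2 did not pass. Among members with a window but no match, IER2 also fell with CH223191, IER5 rose and NR4A1 and NR4A3 did not pass. Of those without a window, EGR3 and IER3 fell and NR4A2 did not pass. A link between the matches and these changes was not tested.
EGR1, chr5:138465364-138465478, plus strand: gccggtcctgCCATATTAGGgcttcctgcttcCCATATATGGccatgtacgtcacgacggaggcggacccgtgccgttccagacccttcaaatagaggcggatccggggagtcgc
SRF, chr6:43171229-43171268, plus strand: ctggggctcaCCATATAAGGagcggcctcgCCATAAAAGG
EGR2, the most downstream of its 3 listed starts, chr10:62816367-62816447, minus strand: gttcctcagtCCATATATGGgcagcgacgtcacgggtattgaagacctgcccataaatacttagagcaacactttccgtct
EGR1 and SRF each held 2 matches and EGR2 held 1.

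The core of the CREB site, TGACG, matched in 5 of the 7 members, and in 5 of their 11 windows against 24.5% of all windows. NR4A3 had 4 matches, the most of any member window, and its stretch is shown because NR4A3 was the member that fell with TCDD. Capitals mark TGACG or its reverse complement.
NR4A3, chr9:99821766-99821884, plus strand: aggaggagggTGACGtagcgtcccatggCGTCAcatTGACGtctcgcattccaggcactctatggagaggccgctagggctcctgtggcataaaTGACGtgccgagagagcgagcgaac
The core of the AHR response element, TNGCGTG, matched in 1 of the 7, IER2, and in 1 of 11 windows against 5.49% of all windows. Capitals mark its reverse complement, which shares 2 bases with a TGACG match on the same strand.
IER2, chr19:13150264-13150410, plus strand: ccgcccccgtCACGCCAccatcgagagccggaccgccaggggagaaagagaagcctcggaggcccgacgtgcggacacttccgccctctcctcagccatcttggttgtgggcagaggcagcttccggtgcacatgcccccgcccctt
The full CREB site TGACGTCA, the ETS site CCGGAAGT and the NR4A response element AAAGGTCA matched in 0 of the 7 and in 1.84, 4.13 and 1.21% of all windows. These matches describe letters in a window and no factor's binding was measured here.

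In DMSO the members spanned a wide range of levels. Per kilobase of spliced MANE Select transcript, the level of IER3 was 111 ± 1.43 CPM per kb (CPM, reads per 1000000 counted on scaled totals, divided by length; SD, n = 3). IER2 followed at 40.8 ± 2.31 and EGR1 at 37.2 ± 0.861 CPM per kb, close together without overlap. SRF lay at 16.7 ± 0.350, IER5 at 12.3 ± 0.198 and NR4A1 at 7.42 ± 0.784 CPM per kb, also with no overlap between neighbours. NR4A3 (1.02 ± 0.0833), EGR3 (0.678 ± 0.0593), NR4A2 (0.578 ± 0.0606) and EGR2 (0.334 ± 0.0787 CPM per kb) were low. EGR3 and NR4A2 were the neighbours whose libraries overlapped. The reads behind these levels differed accordingly, with 1734 to 3308 reads per library for EGR1 but 7 to 36 for EGR2, 21 to 87 for EGR3 and 50 to 76 for NR4A2.

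As a group the members are compact genes. Their median span on hg38 was 6497 bases and their median number of introns 1, against 33417 bases and 8 introns over 11737 tested genes with a MANE Select transcript in GENCODE 44. NR4A1 and NR4A3, at 36676 and 45037 bases, were the 2 members longer than that median. The instability motif ATTTA occurred 8.14 times per kb in the 3′ untranslated region of IER3, more than in 98.7% of 10723 tested genes, and 5.37 times per kb in that of NR4A1. IER2 had 0 matches. Over the set, 5 of 10 members lay above the median of tested genes, which is the share that median sets.

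Libraries held 21397703 to 28247146 counted reads, and the CH223191 library with replicate number 3 was the shallowest. Epithelial markers were at 1 CPM or more for 8 of 8 genes, among them EPCAM and KRT8. KRT20 and VIL1, markers of differentiated colonocytes, were low at 3.21 and 2.48 CPM. Fibroblast markers reached 1 CPM for 0 of 8 genes, immune markers for 4 of 8 and endothelial markers for 1 of 6. The 4 immune markers were LYZ (6.09 CPM), CD68 (3.22), HLA-DRA (1.94) and CD14 (1.47), of which LYZ and CD68 lay above KRT20 and VIL1. PTPRC, the pan-leukocyte marker, lay at 0.449 CPM. Summed levels of the immune markers overlapped between the groups, at 10.8 to 18.7 CPM in DMSO and 8.71 to 16.8 CPM with CH223191. Summed epithelial markers were at 8871 to 9051 CPM with TCDD, below DMSO (9117 to 9644), kynurenine (9612 to 9931) and CH223191 (9322 to 9569). For these sums CH223191 also lay below kynurenine, while DMSO overlapped both kynurenine and CH223191. With TCDD, CDX2 (0.41) was called higher and CDH1 (-0.13) and KRT18 (-0.12) lower, and with CH223191 CDX2 (-0.37) was called lower. The KRT18 call ended when DMSO replicate 1, DMSO replicate 3, TCDD replicate 2 or TCDD replicate 3 was left out, at an adjusted p of up to 0.14. The part of these shifts in the members' results was not tested. Tested jointly over the 4 groups, 8 of 10 members differed (edgeR quasi-likelihood F test, adjusted p under 0.05 over all genes), against 43.6% of all tested genes. The 2 that did not pass were EGR2 (adjusted p = 0.40) and NR4A2 (0.13). The call of NR4A1 (0.029) ended in 6 of 18 alternative fits, with a highest adjusted p of 0.11 without CH replicate 1.

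**Figure D1:**
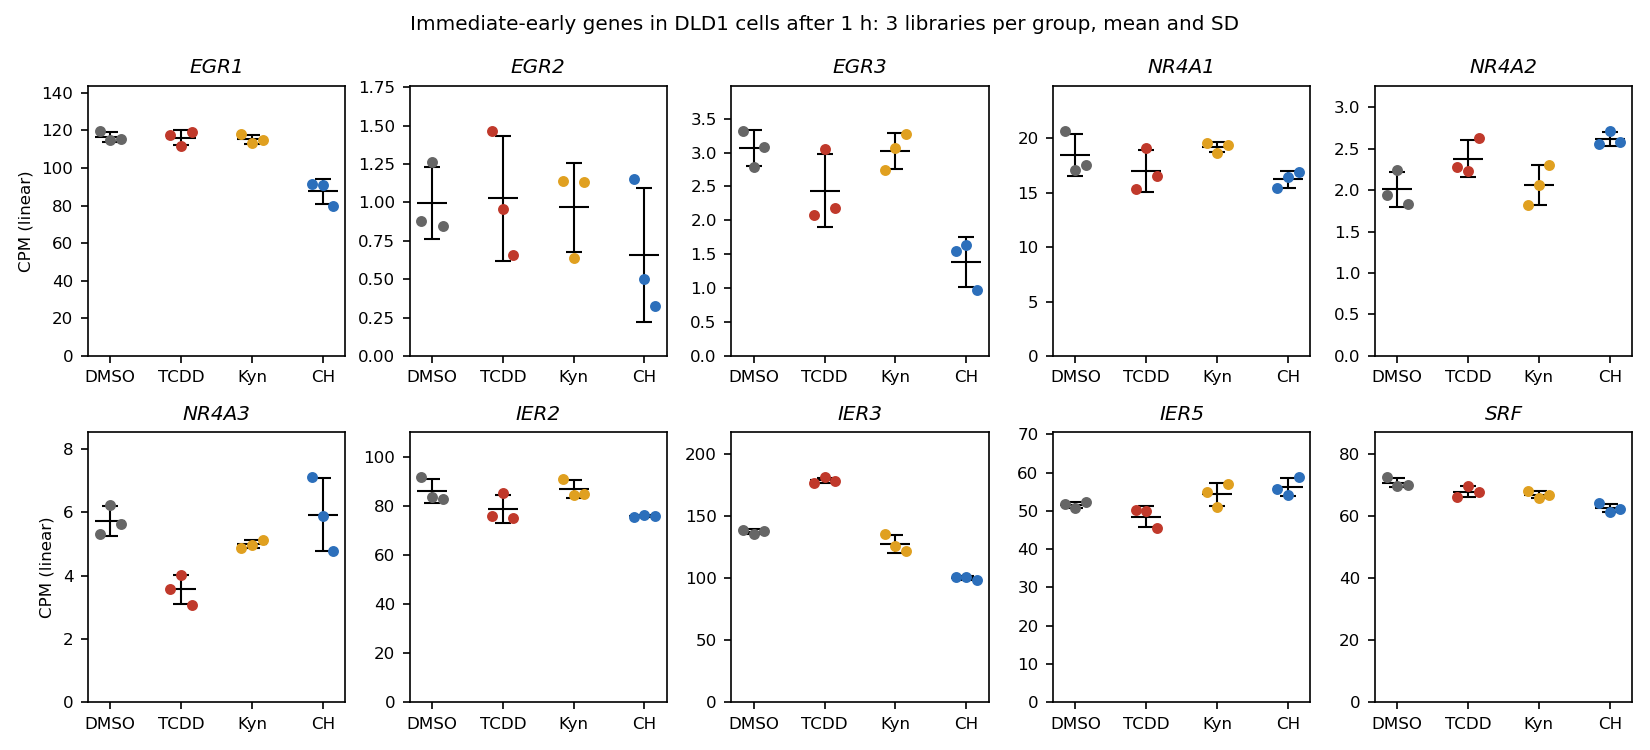
Level of each of the 10 members in CPM (linear axes from 0) by group. Points are the 3 libraries of a group in replicate order, and bars give the mean and SD. The TCDD libraries of IER3 lie at 177 to 181 CPM and those of CH at 98.6 to 101 CPM, on either side of DMSO.

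IER3, a regulator of cell survival that ERK phosphorylates and NF-kB induces, was the member with the clearest differences. Its levels were 139, 136 and 138 CPM in the DMSO libraries and 177, 181 and 179 CPM with TCDD. With kynurenine they were 136, 126 and 122 CPM, and with CH223191 they were 101, 101 and 98.6 CPM. The TCDD libraries were thus the highest and the CH223191 libraries the lowest of the 12, with no overlap with any other group, while the highest kynurenine library lay just below the lowest DMSO library.

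Against DMSO, IER3 rose 1.30-fold with TCDD (log2 fold change 0.38 ± 0.0366 SE, adjusted p = 1.3e-09) and fell with CH223191 (-0.46 ± 0.0379, adjusted p = 6.7e-12). With kynurenine the log2 fold change was -0.11 (95% interval -0.18 to -0.03) and did not pass (adjusted p = 0.40). Between compounds, IER3 was 1.78-fold higher with TCDD than with CH223191 (log2 difference 0.83, adjusted p = 1.0e-19) and 1.40-fold higher with TCDD than with kynurenine (0.49, adjusted p = 2.7e-12). It was also 1.27-fold higher with kynurenine than with CH223191 (0.35, adjusted p = 5.1e-09). The order of levels was TCDD, DMSO, kynurenine and CH223191, in which DMSO and kynurenine were the neighbours that did not differ by the test. Each of the 5 calls held in all 19 alternative fits. These are bulk values, so fewer expressing cells and less RNA per cell cannot be told apart. On hg38, IER3 (ENSG00000137331.12) lies on chromosome 6 at 30743199 to 30744548, on the minus strand. The antisense transcripts IER3-AS1 and HCG20 overlap it by 440 and 759 bases and were not among the counted symbols, so their reads cannot be told apart from those of IER3 without a strand setting. The same holds for uncounted non-coding genes on the opposite strand of EGR3 (3331 bases of overlap), NR4A1 (NR4A1AS, 1045 bases) and IER2 (662 and 1123 bases). At EGR2 such a gene overlaps 4735 bases on the same strand, where a strand setting would not separate them.

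The other IER genes moved less. IER2, a short-lived nuclear protein, was at 91.7, 83.8 and 82.9 CPM in DMSO and at 76.1, 85.5 and 75.2 CPM with TCDD. With kynurenine it was at 91.1, 84.6 and 84.9 CPM, and with CH223191 at 75.5, 76.3 and 76.0 CPM. The CH223191 libraries lay below every DMSO and kynurenine library, and the TCDD libraries overlapped every group. IER2 fell with CH223191 (log2 fold change -0.18 ± 0.0462 SE, adjusted p = 0.0025) and was higher with kynurenine than with CH223191 (0.19, adjusted p = 0.0012). With TCDD against DMSO the value was -0.13 (adjusted p = 0.073), and the call appeared in 3 of 19 alternative fits, most clearly without TCDD replicate 2 (-0.19, adjusted p = 0.010). Between TCDD and kynurenine it was -0.14 (adjusted p = 0.051), with a call in 7 of 19.

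IER5, which binds the phosphatase PP2A and the heat shock factor HSF1, was at 51.9, 50.6 and 52.2 CPM in DMSO and at 55.7, 54.0 and 58.7 CPM with CH223191. With TCDD it was at 50.1, 49.9 and 45.5 CPM, and with kynurenine at 54.9, 51.0 and 57.0 CPM. The CH223191 libraries lay above the DMSO libraries and the TCDD libraries below them. IER5 rose with CH223191 (log2 fold change 0.12 ± 0.0477 SE, adjusted p = 0.0497), a call that ended in 8 of 19 alternative fits, with DESeq2 (0.075) and without DMSO replicate 1 (0.084), 2 (0.13) or 3 (0.077) or CH replicate 1 (0.088) or 3 (0.20) among them. With TCDD it was lower than with CH223191 (-0.21, adjusted p = 8.5e-04) and lower than with kynurenine (-0.16, adjusted p = 0.028). The latter call ended without TCDD replicate 3 (0.22), Kyn replicate 1 (0.080) or Kyn replicate 3 (0.14).

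Among the EGR genes, EGR1 and EGR3 fell with CH223191. EGR1, the founding member, was at 119.7, 115 and 115 CPM in DMSO, 118, 111 and 119 CPM with TCDD and 118, 113 and 115 CPM with kynurenine. With CH223191 it was at 91.5, 91.2 and 79.8 CPM. All 3 CH223191 libraries lay below the other 9, which overlapped, and replicate 3, the shallowest library, was the lowest.

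EGR1 fell to 0.753-fold of DMSO with CH223191 (log2 fold change -0.41 ± 0.0427 SE, adjusted p = 1.7e-09), and it was higher with TCDD (0.40, adjusted p = 1.8e-09) and with kynurenine (0.39, adjusted p = 4.4e-09) than with CH223191. Without CH replicate 3 the fall was -0.35 (adjusted p = 5.5e-08). Neither agonist moved EGR1 past the test, and the intervals were narrow: the 95% interval of the log2 fold change was -0.09 to 0.08 with TCDD (adjusted p = 0.96) and -0.10 to 0.07 with kynurenine (0.99). EGR1 (ENSG00000120738.8) lies on chromosome 5 at 138465479 to 138469303.

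EGR3, a relative that calcium and growth factor signals induce, was at 3.32, 2.78 and 3.08 CPM in DMSO and at 1.55, 1.64 and 0.966 CPM with CH223191. With TCDD it was at 2.08, 3.06 and 2.18 CPM, and with kynurenine at 2.74, 3.07 and 3.27 CPM. The CH223191 libraries were again below the other 9. EGR3 fell 2.16-fold (log2 fold change -1.11 ± 0.184 SE, adjusted p = 1.2e-05), the largest change of any member against DMSO in this series, on 21 to 46 reads per CH223191 library. Without CH replicate 3 the value was -0.94 (adjusted p = 2.5e-04). It was higher with TCDD (0.78, adjusted p = 0.0019) and with kynurenine (1.09, adjusted p = 1.7e-05) than with CH223191. With TCDD against DMSO the value was -0.33, with a 95% interval of -0.67 to 0.01 (adjusted p = 0.21).

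EGR2, known for its role in myelination, had the fewest reads. Its values were 0.877, 1.27 and 0.844 CPM in DMSO and 1.15, 0.500 and 0.322 CPM with CH223191, and they overlapped. The log2 fold change with CH223191 was -0.55 (95% interval -1.24 to 0.14, adjusted p = 0.22), an interval that holds both 0 and the -1.11 of EGR3. Without CH replicate 1 the value was -1.24 and passed (adjusted p = 0.019). With TCDD it ranged from 0.658 to 1.47 CPM and with kynurenine from 0.636 to 1.14 CPM.

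**Figure D2:**
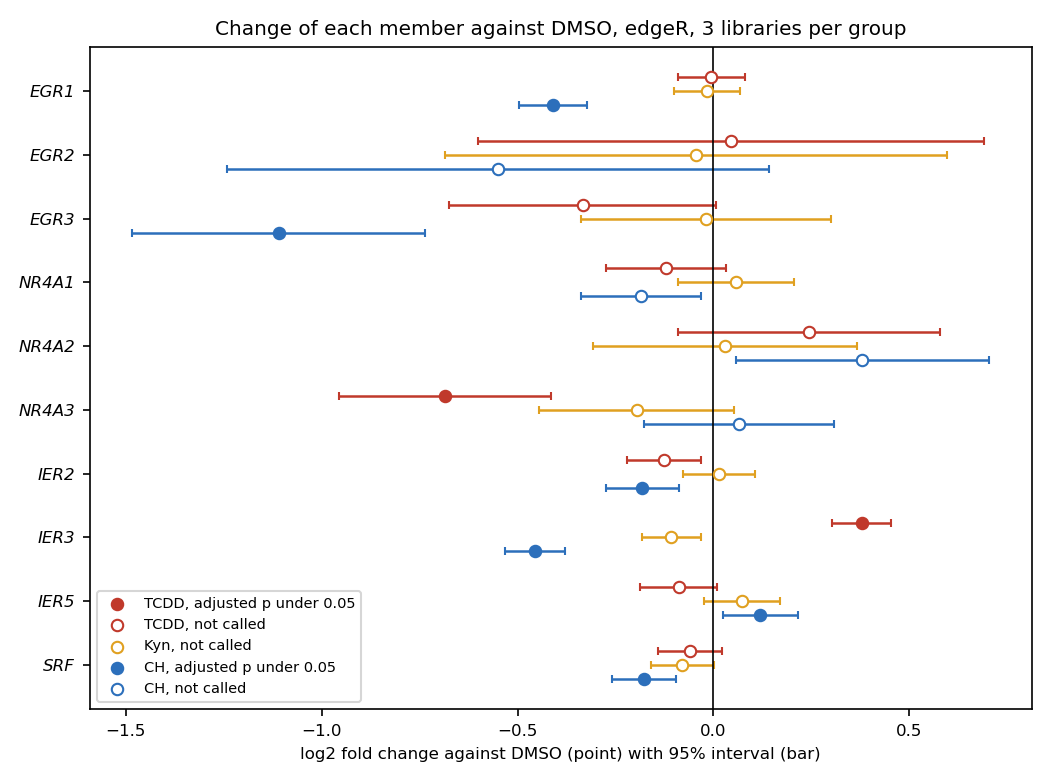
Log2 fold change of each member against DMSO (horizontal axis; point) with its 95% interval (bar), for TCDD, kynurenine (Kyn) and CH223191 (CH). Filled points passed an adjusted p of 0.05. NR4A3 is the member filled to the left for TCDD (-0.69) and IER3 the one filled to the right (0.38), and 0 points are filled for Kyn.

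The NR4A receptors did not move as a block. NR4A3 was at 5.30, 6.22 and 5.62 CPM in DMSO and at 3.58, 4.02 and 3.08 CPM with TCDD. With kynurenine it was at 4.88, 4.97 and 5.13 CPM, and with CH223191 at 7.09, 5.89 and 4.78 CPM. The TCDD libraries were below the other 9. The kynurenine libraries lay narrowly below DMSO, and those of CH223191 spread across both.

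NR4A3 fell to 0.622-fold with TCDD (log2 fold change -0.69 ± 0.133 SE, adjusted p = 5.1e-04), and the call held in all 19 alternative fits (highest adjusted p = 0.0090). It was lower with TCDD than with CH223191 (-0.75, adjusted p = 2.6e-05) and than with kynurenine (-0.49, adjusted p = 0.018), the last of which ended without TCDD replicate 3 (-0.40, adjusted p = 0.14). Against DMSO it was -0.20 (adjusted p = 0.85) with kynurenine and 0.06 (95% interval -0.18 to 0.31, adjusted p = 0.72) with CH223191. Kynurenine against CH223191 gave -0.26 (adjusted p = 0.10), and -0.38 without CH replicate 3 (adjusted p = 0.020). NR4A3 (ENSG00000119508.18) lies on chromosome 9 at 99821855 to 99866891, and the non-coding gene STX17-DT, not among the counted symbols, runs over all of it on the opposite strand, so reads of that transcript cannot be told apart from its own without a strand setting.

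NR4A1, also called NUR77, a receptor with roles in apoptosis and metabolism, was at 20.7, 17.1 and 17.6 CPM in DMSO, 15.3, 19.1 and 16.5 CPM with TCDD and 19.5, 18.7 and 19.4 CPM with kynurenine. With CH223191 it was at 15.4, 16.4 and 16.9 CPM, below every DMSO and kynurenine library. The log2 fold change with CH223191 against DMSO was -0.18 (adjusted p = 0.058), with a call in 3 of 19 alternative fits, without DMSO replicate 2 (-0.24, adjusted p = 0.026) among them. Kynurenine was higher than CH223191 (0.24, adjusted p = 0.012), a call that ended without CH replicate 1 (0.20, adjusted p = 0.078).

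NR4A2, also called NURR1, known from dopamine neurons and as a target of CREB, was at 1.95, 2.24 and 1.84 CPM in DMSO and at 2.56, 2.71 and 2.58 CPM with CH223191. These libraries did not overlap. With TCDD it was at 2.28, 2.23 and 2.63 CPM and with kynurenine at 1.82, 2.06 and 2.30 CPM, and both overlapped DMSO. The log2 fold change with CH223191 was 0.38 (95% interval 0.06 to 0.70, adjusted p = 0.064) and did not pass, except with library totals alone as the scaling (adjusted p = 0.0495).

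SRF, the factor that binds the CArG box, was at 72.3, 69.6 and 70.0 CPM in DMSO, 66.1, 69.7 and 67.7 CPM with TCDD and 67.9, 65.8 and 66.8 CPM with kynurenine. With CH223191 it was at 64.0, 61.4 and 62.1 CPM, the lowest 3 libraries of the 12. SRF fell by 11.5% with CH223191 (log2 fold change -0.18 ± 0.0402 SE, adjusted p = 8.2e-04). It was higher with TCDD than with CH223191 (0.12, adjusted p = 0.023), a call that ended in 6 of 19 alternative fits, without TCDD replicate 2 (0.11) or 3 (0.062) or CH replicate 2 (0.10) or 3 (0.054) among them. With kynurenine against DMSO the value was -0.08 (95% interval -0.16 to 0.00, adjusted p = 0.76).

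Counted over the set, TCDD raised 1 member and lowered 1 of 10 against DMSO, where 11.7% of all tested genes were called, 5.91% higher and 5.83% lower. Without TCDD replicate 3 the calls over all genes went from 1599 to 805, while the members called stayed at 2. Kynurenine changed 0 of 10 by edgeR and 0 by DESeq2, where 0.294% of all genes were called by edgeR, 0.154% higher and 0.14% lower. IER3 was the 1 member with an unadjusted p under 0.05, where 913 of 13619 tested genes had one. CH223191 raised 1 and lowered 5 of 10, where 32.8% of all genes were called, 15.9% higher and 16.9% lower. TCDD against kynurenine gave 1 higher and 2 lower, where 9.19% of all genes were called, 5.1% higher and 4.09% lower. Those 3 members became 1 without TCDD replicate 3, which left IER3, and 5 without TCDD replicate 2, and the 1252 genes called in all became 576 without TCDD replicate 3. TCDD against CH223191 gave 4 higher and 2 lower, where 37.1% of all genes were called, 19% higher and 18.1% lower. Kynurenine against CH223191 gave 5 higher and 0 lower, where 33% of all genes were called, 16.6% higher and 16.4% lower. The median log2 fold change of the members stood at -0.07 (TCDD), -0.02 (kynurenine) and -0.18 (CH223191), and that of all tested genes was 0.00 in each. The 3 comparisons with DMSO share their control libraries. Libraries did not overlap with DMSO for 3 members with TCDD, 3 with kynurenine and 8 with CH223191, against 27.8, 11.4 and 43.4% of all tested genes. Between compounds the members without overlap were 3 for TCDD against kynurenine, 6 for TCDD against CH223191 and 7 for kynurenine against CH223191, against 26, 47.3 and 43.5% of all tested genes.

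**Figure D3:**
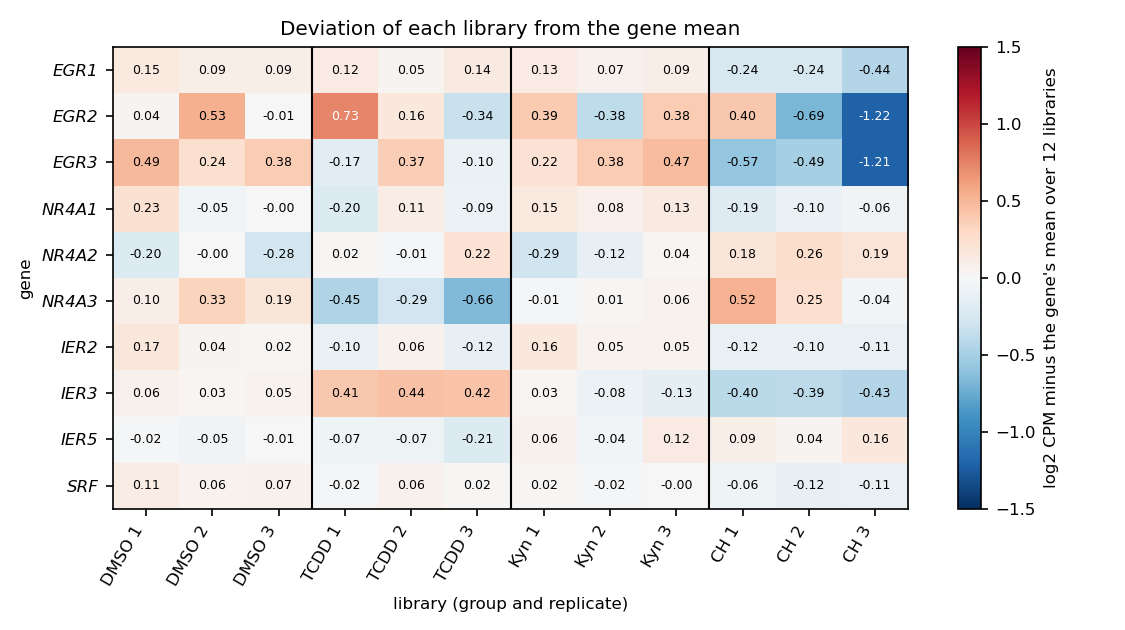
Deviation of log2 CPM from each gene's mean over the 12 libraries (colour scale and printed values), with members in rows and libraries in columns. IER3 is raised in each TCDD column and lowered in each CH column, EGR1 and EGR3 are lowered in each CH column, and NR4A3 is lowered in each TCDD column.

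The genes with the most similar pattern differed from member to member. Likeness was measured as the root mean square difference of log2 CPM over the 12 libraries, each gene centred on its own mean, over 12074 candidate genes that averaged 1 CPM or more. These genes were picked for that likeness, so their values are a description. For IER3 the nearest gene was CDX2, the intestinal homeobox factor (0.0619, against a median of 0.315 over all candidates). CDX2 had log2 fold changes of 0.41 with TCDD, -0.13 with kynurenine and -0.37 with CH223191. PDP1, MMP24, LIF and TFAP2A followed at 0.0716 to 0.0734.

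For NR4A3 the nearest genes were RASSF10 (0.166), CYP24A1 (0.173), CXCL3 (0.174), CXCL1 (0.174) and CCDC96 (0.175), against a median of 0.333. The chemokine genes CXCL1 and CXCL3 had log2 fold changes of -0.54 and -0.44 with TCDD and 0.25 and 0.29 with CH223191. For EGR3 the nearest were SOX15 (0.189), CTGF (0.194), HOXB2 (0.217), PTGER2 (0.223) and SPHK1 (0.243), against 0.515. CTGF, a matricellular growth factor, was at -1.02 with CH223191 and -0.32 with TCDD.

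Corepressors of the EGR proteins fell with CH223191. Of the EGR coregulators and kin, 3 of 3 tested genes fell and 0 rose with CH223191, where 16.9% of all tested genes were called lower. They were the corepressors NAB1 (-0.23 ± 0.0480 SE, adjusted p = 2.6e-04) and NAB2 (-0.27 ± 0.0499, adjusted p = 7.0e-05), which bind EGR proteins, and the paralog EGR4. EGR4, named after its values were seen, was at 0.277 ± 0.166 CPM against 0.604 ± 0.0147 CPM in DMSO (SD, n = 3; -1.08, adjusted p = 0.030). Its call ended in 6 of 18 alternative fits, with DESeq2 and without any DMSO library or CH replicate 2 or 3, with a highest adjusted p of 0.16. With TCDD and with kynurenine 0 of 3 passed by edgeR, where 11.7 and 0.294% of all tested genes were called. At an unadjusted p under 0.05 there were 1 and 0 of the 3, against 3377 and 913 of 13619 tested genes. EGR4 was the 1, with a log2 fold change of 0.66 with TCDD (adjusted p = 0.16).

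Of 12 EGR1 target genes, 1 rose and 5 fell with CH223191, with a median log2 fold change of -0.11. That is 50% of the list against 32.8% of all tested genes, and the TCDD count below is 41.7% against 11.7%. NAB2, counted above among the EGR coregulators, is also in this list and is 1 of the 5 that fell with CH223191. THBS1, an adhesive matrix protein, fell by 0.72 on the log2 scale, and F3, tissue factor, fell by 0.39. CCND1, cyclin D1, fell by 0.25. With TCDD 0 of 12 rose and 5 fell, among them THBS1 (-0.23) and CCND1 (-0.21), while EGR1 itself was at -0.01. With kynurenine 0 rose and 1, THBS1 (-0.18, adjusted p = 0.038), fell, which is 8.33% of the list against 0.294% of all tested genes. This THBS1 call ended in 8 of 19 alternative fits, without DMSO replicate 1 or 3, TCDD replicate 1 or 2, Kyn replicate 1 or 3 or CH replicate 2 among them (highest adjusted p = 0.41).

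Several cytoskeletal targets of SRF fell with CH223191 and with TCDD. Of 22 tested SRF and MRTF cytoskeletal targets, 0 rose and 10 fell with CH223191 (median -0.14), and 0 rose and 7 fell with TCDD (median -0.11). These are 45.5 and 31.8% of the list, where 16.9 and 5.83% of all tested genes were called lower and 32.8 and 11.7% in either direction. With CH223191 ACTG1, cytoplasmic gamma actin, fell from 3426 ± 118 to 2642 ± 76.6 CPM, and CNN2 (-0.38), VCL, vinculin (-0.31), and ZYX, zyxin (-0.31), fell too. With TCDD ACTB, beta actin, fell from 4597 ± 180.0 to 3978 ± 111 CPM, and ZYX (-0.24) and TAGLN2 (-0.15) fell. SRF itself was at -0.06 with TCDD (adjusted p = 0.39). With kynurenine 0 of 22 passed by edgeR, where 0.294% of all tested genes were called. At an unadjusted p under 0.05 there was 1 of 22, against 913 of 13619 tested genes. Of the 5 tested SRF cofactors, 1 rose and 2 fell with CH223191, and the ternary complex factor ELK1 fell (-0.23, adjusted p = 1.2e-04). With TCDD 1 rose and 1 fell, ELK4 (0.14, adjusted p = 0.045) and ELK1 (-0.15, adjusted p = 0.024). The shares called were 60% with CH223191 and 40% with TCDD, against 32.8 and 11.7% of all tested genes. The ELK1 call with TCDD was lost when DMSO replicate 1, DMSO replicate 3, TCDD replicate 2 or TCDD replicate 3 was left out (adjusted p up to 0.16), and that of ELK4 with TCDD ended in 9 of 19 alternative fits (highest 0.20). The other 2 calls with CH223191, of ELK4 (0.12) and MKL1 (-0.14), also ended in several alternative fits, with a highest adjusted p of 0.20 and 0.14.

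Factors that act upstream of NR4A genes were also measured. Of 11 tested CREB, CRTC and MEF2 regulators, 3 rose and 0 fell with TCDD and 0 rose and 1 fell with CH223191. These are 27.3% of the list against 11.7% of all tested genes with TCDD, and 9.09% against 32.8% with CH223191. MEF2C, of a calcium-responsive factor family that acts at NR4A1, was the gene in both counts, at 58.8 ± 0.315 CPM with TCDD, 49.1 ± 1.80 CPM in DMSO and 39.0 ± 2.32 CPM with CH223191 (SD, n = 3). Its log2 fold changes were 0.26 (adjusted p = 1.1e-04) and -0.33 (adjusted p = 9.7e-07). The coactivator EP300 rose with TCDD (0.24). Of the 2 tested RXR genes, whose products pair with NR4A1 and NR4A2, RXRA fell with CH223191 (-0.21, adjusted p = 1.2e-04) and RXRB rose (0.14, adjusted p = 0.040), where 32.8% of all tested genes were called. The RXRB call ended with DESeq2 and without DMSO replicate 2 or CH replicate 1 or 3 (highest adjusted p = 0.26).

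In the ERK cascade, which phosphorylates the SRF partners, 2 of 17 genes rose and 0 fell with TCDD, and 2 rose and 5 fell with CH223191. These are 11.8 and 41.2% of the list, against 11.7 and 32.8% of all tested genes, so the TCDD share is at the background. SOS1, the exchange factor that loads RAS, rose with TCDD (0.32, adjusted p = 1.8e-06), as did EGFR (0.21, adjusted p = 0.0046). The adaptor GRB2 (-0.14), HRAS (-0.17) and the kinase RPS6KA1 (-0.15) fell with CH223191, and RPS6KA2 rose (0.36). With kynurenine 0 of 17 passed by edgeR, where 0.294% of all tested genes were called. At an unadjusted p under 0.05 there were 0 of 17, against 913 of 13619 tested genes.

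Other immediate-early and early response genes moved in both directions. With CH223191, 17 of 56 tested genes rose and 22 fell, which is 69.6% of the list against 32.8% of all tested genes, with a median log2 fold change of -0.05. The growth regulator CYR61 fell from 142 ± 3.67 to 59.8 ± 2.90 CPM (-1.25), and CTGF (-1.02) and the AP-1 subunit FOSL1 (-0.62) fell, while ID1, which blocks helix-loop-helix factors, rose (0.47). With TCDD 4 rose and 12 fell, which is 28.6% against 11.7% of all tested genes. PPP1R15A, a phosphatase subunit of the stress response (0.37), FOSL2 (0.27) and ERRFI1, an EGF receptor inhibitor (0.24), rose and CXCL1 fell. With kynurenine 2 rose and 1 fell, which is 5.36% against 0.294%. DUSP5, a nuclear ERK phosphatase (0.25, adjusted p = 0.0045), and ID1 (0.18, adjusted p = 0.0094) were higher, and CYR61 (-0.17, adjusted p = 0.028) was lower. The calls with kynurenine ended for DUSP5 without DMSO replicate 2 (adjusted p = 0.085), for ID1 without DMSO replicate 1 (0.076) or Kyn replicate 3, and for CYR61 without DMSO replicate 1, 2 or 3, without TCDD replicate 1, without Kyn replicate 2 or 3 or with only the compared groups fitted (highest 0.22).

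**Figure D4:**
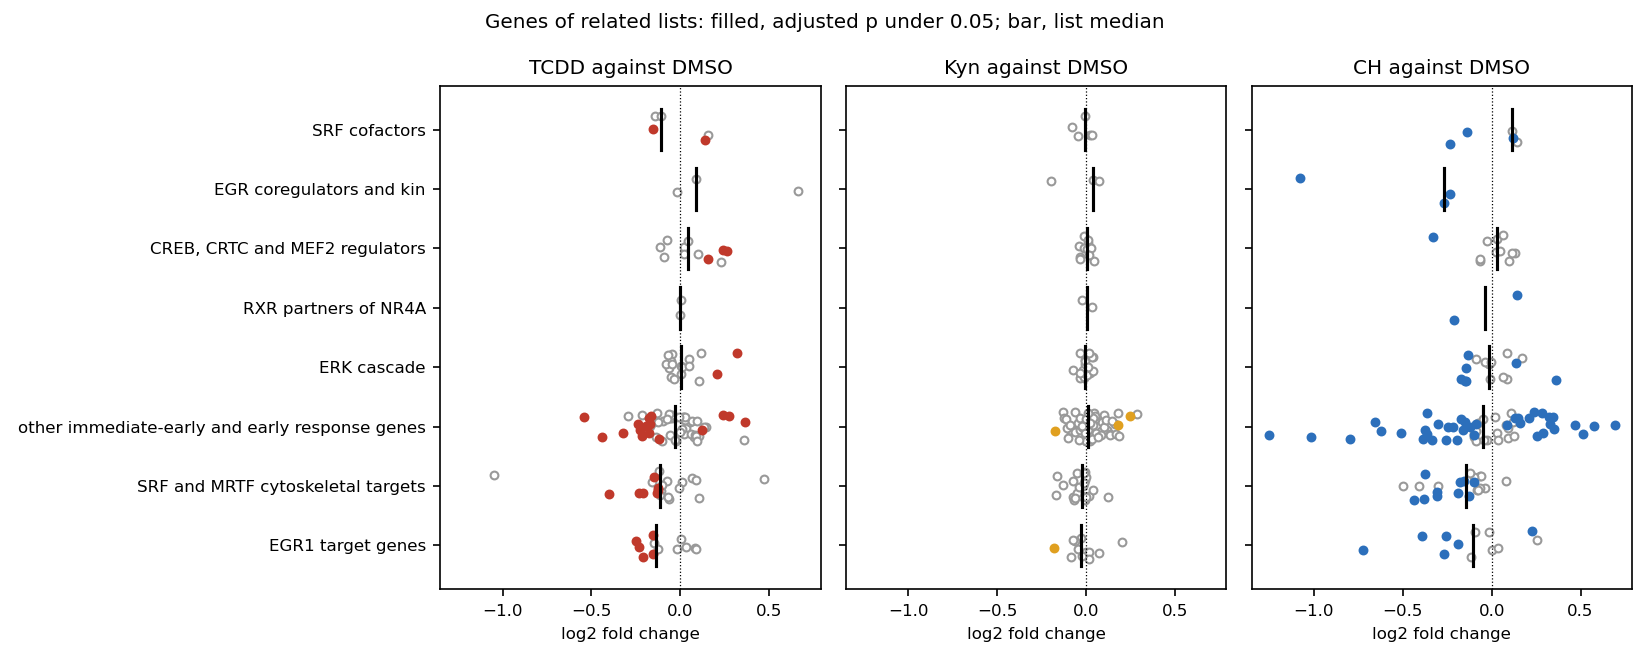
Log2 fold change against DMSO (horizontal axis) of the tested genes of 8 related lists (rows) with TCDD, kynurenine (Kyn) and CH223191 (CH). Each point is 1 gene, filled where the adjusted p was under 0.05, and the black bar is the list median. For the cytoskeletal targets of SRF the filled points of TCDD and CH all lie left of 0, and the early response genes spread to both sides with CH.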

How the data were processed

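Raw counts of reads per gene symbol were deposited by the authors, who used Trim Galore, STAR 2.7.2b, SAMtools 1.9 and HTSeq on hg38, per the submitters' processing notes. The labels' protocol names another STAR version and does not mention CH. The strand setting is not given in the sources used here. Entries that name no gene stayed out (no feature 6.59 to 8.48%, ambiguous 2.47 to 2.56%).

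In edgeR 4.0.16 (R 4.3.3), genes passed filterByExpr (minimum count 10), totals were scaled by TMM (0.988 to 1.02), and 1 quasi-likelihood fit with a coefficient for each of the 4 groups gave all tests, with Benjamini-Hochberg adjustment over 13619 genes. A call is an adjusted p under 0.05, from this test unless DESeq2 is named. Log2 CPM used a prior count of 2. The procedure was tested on simulated data. Alternatives were DESeq2 1.42.0, scaling by RLE or by totals alone, no filter on low counts or a floor of 5 CPM in 3 libraries, fits with a replicate block or on the compared groups only, and each library left out.

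Libraries of 1 group differed by 1.76 to 4.64 times Poisson variance, so none was counted as a duplicate. Gene models are GENCODE 44. The members and lists were chosen with earlier results of these data known. Named genes are the members, up to 4 called genes of smallest p at 1 CPM or more per list and comparison with DMSO, and the 5 most like genes of the 3 jointly called members with the widest range. Values of 1 gene that this rule names are not reported here.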

Additional observations from a re-analysis of the deposited data

How the results depend on the processing

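Over 19 alternatives, 1254 of 1299 refitted values of the members kept their side of the threshold, 25 lost a call, 20 gained one and 0 reversed. A change of sign counted as a reversal only where the main or the alternative fit made a call. Uncalled values near 0 did change sign, such as EGR1 with TCDD against DMSO (-0.03 to 0.02). The joint tests among the 1299 have no direction. For the other named genes, whose refits were chosen after seeing the data, 1714 of 1787 kept their side of the threshold, 70 lost a call and 3 gained one. Members called numbered 2 with TCDD, 0 with kynurenine and 6 with CH223191 against DMSO, and 2 to 3, 0 and 5 to 7 with 1 library left out. For TCDD against kynurenine the member count of 3 ranged from 1 (without TCDD replicate 3) to 5 (without TCDD replicate 2). Over all genes, the 1599 called with TCDD ranged from 805 (without TCDD replicate 3) to 1912 (without Kyn replicate 1), and the 1252 between TCDD and kynurenine from 576 (without TCDD replicate 3) to 1323 (without DMSO replicate 1). The 40 called with kynurenine were 65 with no low-count filter and 26 with only the compared groups fitted, and ranged from 30 to 44 with 1 library left out. The causes were not tested. With at least 5 CPM in 3 libraries, 7 of the 10 members remained to be tested.

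Deviations of libraries with the same replicate number correlated by -0.055 to 0.037 in 18 pairs and those of other numbers by -0.053 to 0.083 in 36, and 1 of 12 libraries correlated best with its own number. The numbers were therefore not taken as pairs. With a replicate block the members called were 2, 0 and 5 against DMSO for TCDD, kynurenine and CH223191, then 3, 6 and 5 between compounds and 8 jointly, and IER5 with CH223191 was the 1 member call lost (adjusted p = 0.054). All genes called with the block were 1537, 38, 4366, 1197, 4948, 4386 and 5784 in the same order. EGR2, EGR3 and NR4A2, with at most 36, 87 and 76 reads per library, had wide intervals, and small changes in them were not detectable at this depth.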
